A study of Mus musculus with 9 samples.

Results

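The genes described here are those of the circadian clock in the right ventricle of mice, together with Bhlhe40, a transcriptional repressor that feeds back on the clock. The list held 10 genes: the activators Arntl and Npas2, the repressors Per1, Per2, Per3, Cry1 and Nr1d1, the clock-controlled transcription factors Dbp and Tef, and Bhlhe40. Each gene was read from a probe set annotated to it alone, and where it had several, from the brightest. Of the 10 genes, 8 had such a probe set, out of 18820 genes measured in this way. Nr1d1 was covered by 2 probe sets shared with Thra, and Dbp by 1 shared with Sphk2, so these 2 genes have no value of their own and their shared probe sets are given apart. The list was drawn up with the values of the 9 mice known. The levels, the group differences and the opposed movement of activators and repressors were part of that choice and are therefore a description, with no test.

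In nearly every mammalian cell, the proteins of Arntl (also called Bmal1) and of Clock or Npas2 bind DNA together at E-box motifs and switch on the Period and Cryptochrome genes. The PER and CRY proteins then enter the nucleus and repress the same activators, so that the transcripts of the activating and of the repressing arm peak at opposite times of day. In the heart this clock runs in cardiomyocytes themselves, and it sets daily rhythms in metabolism, ion channels and the response to load.

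Gene expression was measured with Affymetrix Mouse Gene 1.1 ST arrays in the right ventricle of 9 female C57BL/6 mice, 3 per group, each a separate animal. All mice arrived at 8 weeks of age, were kept under alternating light and dark periods of equal length, and received weekly injections for 8 weeks from the age of 10 weeks. The sham mice (620, 624 and 625) received saline and the standard diet AIN-93M. The MCT mice (640, 641 and 644) received 600 mg/kg monocrotaline, a plant alkaloid that injures the vessels of the lung and so loads the right ventricle, with the same diet. The MCT + NI mice (615, 617 and 619) received the same dose of monocrotaline with the nutritional intervention, an isocaloric diet rich in fish oil, oligosaccharides, leucine and protein. The labels put the start of the diets 2 weeks before the first injection, whereas the methods give a shorter lead. No group received the intervention without monocrotaline. The mice put on arrays were picked from larger groups and matched for the severity of disease.

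The deposited values are log2 intensities, in which a step of 1 is a doubling, and the array medians lay between 4.77 and 4.79. Over all genes the median standard deviation (SD) within groups was 0.113. Transcripts of ventricular cardiomyocytes averaged 11.8 to 11.9 in every mouse. The mean of 6 atrial markers was 10.2 to 11.0 in the sham mice, 5.13, 5.50 and 10.7 in MCT mice 640, 641 and 644, and 9.16, 6.01 and 5.24 in MCT + NI mice 615, 617 and 619. The mean of MCT mouse 644 lay within the sham range and those of the other 5 monocrotaline mice below it. All 6 markers were lower in both monocrotaline groups than in sham mice at an unadjusted p under 0.05 in limma. Of all genes 19.7% and 19.5% passed this threshold in either direction. The median differences of the 6 markers were -3.47 and -3.80. After adjustment 0 of them passed, beside 6.26% of all genes in each comparison. Atrial transcripts and treatment were thus partly confounded. Arrays of whole tissue cannot tell fewer cells of a type from less RNA per cell.

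Sequences just before the start of transcription are shown for 4 of the genes because the clock acts on its own genes through short motifs there. They come from RefSeq (GRCm38.p6), 250 bases each, read 5′ to 3′ on the strand of the gene. Capitals mark the E-box CACGTG, bound by the activators, in Per1 (chr11:69098699-69098948, plus strand), Tef (chr15:81802423-81802672, plus strand) and Cry1 (chr10:85185055-85185304, minus strand). In Cry1, capitals also mark AACGTG, the reverse complement of the related E′-box CACGTT. In Per3 (chr4:151044666-151044915, minus strand) they mark the D-box TTATGTAA, the motif bound by the proteins of Dbp, Tef and Hlf.
Per1: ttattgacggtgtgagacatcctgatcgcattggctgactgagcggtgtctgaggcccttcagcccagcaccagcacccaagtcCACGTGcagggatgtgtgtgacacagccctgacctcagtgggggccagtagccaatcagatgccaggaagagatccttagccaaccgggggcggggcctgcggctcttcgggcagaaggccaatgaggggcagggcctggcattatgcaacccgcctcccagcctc
Tef: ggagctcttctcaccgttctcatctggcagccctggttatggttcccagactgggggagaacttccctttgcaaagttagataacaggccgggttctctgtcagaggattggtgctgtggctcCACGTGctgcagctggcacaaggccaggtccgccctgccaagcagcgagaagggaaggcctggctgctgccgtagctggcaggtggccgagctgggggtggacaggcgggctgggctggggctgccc
Cry1: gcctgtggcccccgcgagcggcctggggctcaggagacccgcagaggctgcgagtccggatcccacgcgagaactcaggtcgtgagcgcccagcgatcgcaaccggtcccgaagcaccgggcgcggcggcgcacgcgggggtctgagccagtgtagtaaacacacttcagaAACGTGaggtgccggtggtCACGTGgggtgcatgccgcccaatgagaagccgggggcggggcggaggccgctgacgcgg
Per3: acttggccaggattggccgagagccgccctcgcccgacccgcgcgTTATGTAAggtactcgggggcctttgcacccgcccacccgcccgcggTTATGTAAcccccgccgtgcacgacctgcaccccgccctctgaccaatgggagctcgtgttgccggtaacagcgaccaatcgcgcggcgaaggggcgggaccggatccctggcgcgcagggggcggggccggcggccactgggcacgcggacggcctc

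The single E-box of the Per1 stretch began 166 bases before the start, that of Tef 127 bases and that of Cry1 60 bases. The pair of D-boxes in Per3 began 205 and 158 bases before the start. A window of 300 bases, from 250 before to 50 after a start, was at hand for 8 of the 10 genes, Per2 and Bhlhe40 being those without. Searched on both strands, the E-box was present in a window of 3 of these 8 genes and of 8.09% of 27025 genes. The E′-box was present in 2 of the 8, Cry1 and Nr1d1, and in 5.44% of all genes, and the D-box in 1 of the 8, Per3, and in 1.11%. The core of the motif bound by ROR and REV-ERB receptors (TAGGTCA on either strand) was present in 1 of the 8, Arntl, and in 2.97% of all genes. In the later of the 2 windows of Arntl it began at base 31, the start being base 1, and it is shown in capitals within chr7:113207529-113207557 on the plus strand.
Arntl: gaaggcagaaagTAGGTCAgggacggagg

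Arntl, the activator without which the clock stops, varied more between mice of a group than between groups. Its log2 intensity was 4.44, 4.93 and 5.72 in sham mice 620, 624 and 625, 6.07, 4.63 and 6.61 in MCT mice 640, 641 and 644, and 6.71, 4.09 and 7.25 in MCT + NI mice 615, 617 and 619. Mouse 617 had the lowest value of the 9 and mouse 619, from the same group, the highest, 8.90-fold apart. All 3 groups overlapped. The means were 5.03 ± 0.65, 5.77 ± 1.03 and 6.02 ± 1.69 (SD, n = 3), and 84.6% of the sum of squares of Arntl lay within the groups.

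Npas2, which can take the place of Clock as partner of Arntl, ran in parallel. It read 4.81, 5.44 and 5.89 in the sham mice, 6.16, 5.10 and 6.50 in the MCT mice and 6.85, 5.11 and 6.95 in the MCT + NI mice, each group in the order given above. The same animals stood out: mouse 641 was the lowest of the MCT mice and mouse 617 the lowest of the MCT + NI mice for either activator. Over the 9 mice the 2 activators had a Pearson correlation of 0.98.

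**Figure D1:**
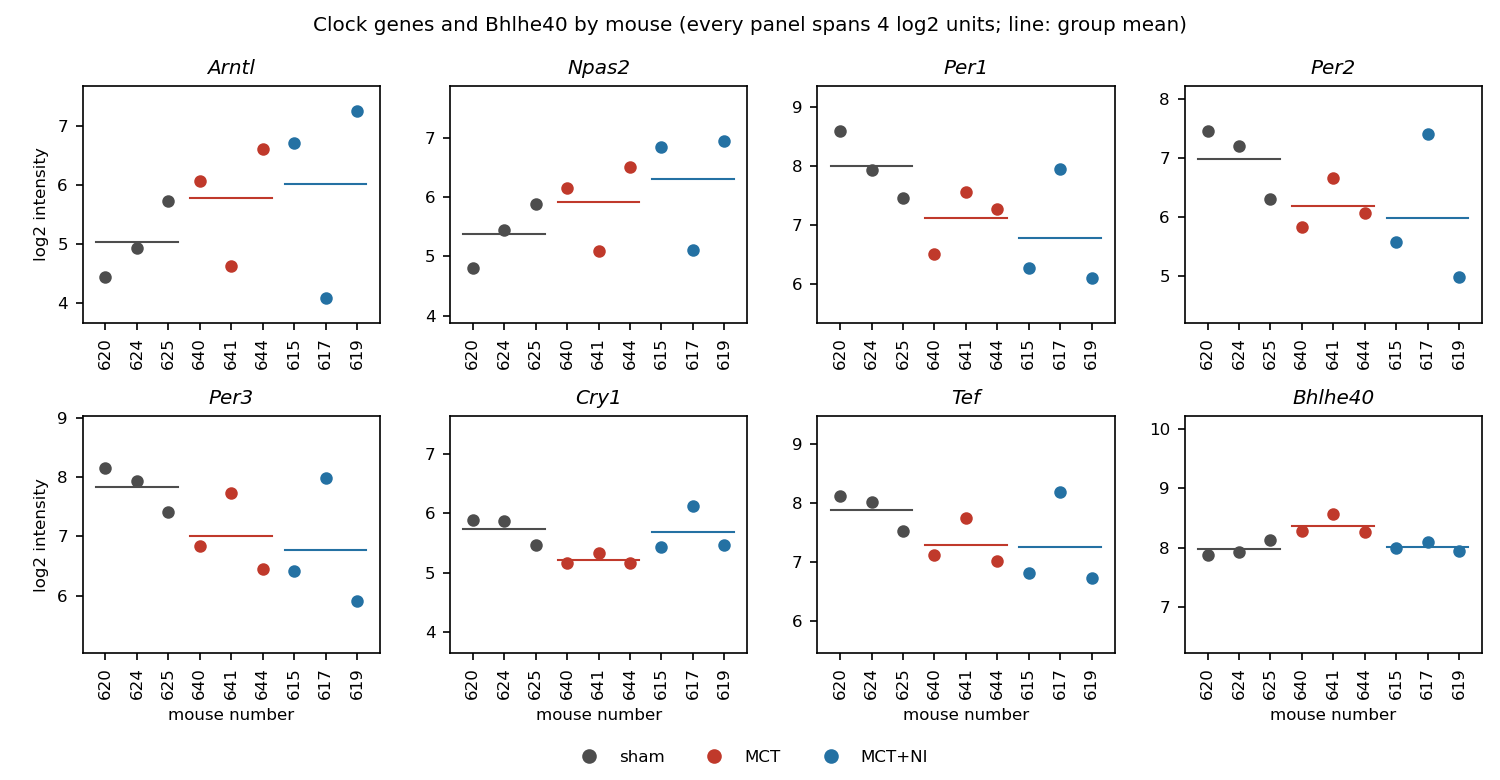
Log2 intensity (vertical axis) of the 8 measured genes in each mouse (horizontal axis, mouse number), with a line at the mean of each group of 3 sham, MCT and MCT + NI mice. Every panel spans the same number of log2 units. Mice 641 and 617 sit low for Arntl and Npas2 and high for Per1, Per2, Per3, Cry1 and Tef among the mice of their groups, while the 3 MCT values of Bhlhe40 lie above the other 6.

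The 3 Period genes, which encode the repressors that accumulate first, moved the opposite way. Per1 read 8.59, 7.93 and 7.45 in the sham mice, 6.52, 7.56 and 7.26 in the MCT mice and 6.28, 7.94 and 6.11 in the MCT + NI mice. Per2 read 7.45, 7.20 and 6.31, then 5.84, 6.66 and 6.07, then 5.58, 7.41 and 4.98 in the same mice. Mouse 617, lowest for Arntl, had a Per2 level within the range of the sham mice, and its group mates 615 and 619 had the 2 lowest levels of either gene.

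Per3 read 8.15, 7.94 and 7.40 in the sham mice, 6.84, 7.73 and 6.46 in the MCT mice and 6.41, 7.99 and 5.91 in the MCT + NI mice. The groups overlapped for every Period gene. The distance between the lowest and the highest mouse was 5.59-fold for Per1, 5.53-fold for Per2 and 4.72-fold for Per3, and in each case mouse 619 was the lowest and sham mouse 620 the highest.

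Tef, a transcription factor of the PAR bZIP family that carries the rhythm to output genes through D-boxes, followed the Period genes. It read 8.12, 8.01 and 7.53 in the sham mice, 7.12, 7.74 and 7.01 in the MCT mice and 6.82, 8.19 and 6.74 in the MCT + NI mice. Here mouse 617 was the highest of all 9, so that its group spanned 2.73-fold, against 1.51-fold in the sham and 1.66-fold in the MCT group. The probe set that Dbp, a relative of Tef, shares with Sphk2 read 10.8, 10.6 and 10.1 in the sham mice, 9.42, 10.4 and 9.26 in the MCT mice and 8.70, 10.4 and 8.21 in the MCT + NI mice. It cannot be assigned to either gene, and mouse 619 was again the lowest and mouse 620 the highest.

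Nr1d1 encodes REV-ERBα, a repressor of Arntl. Its brighter shared probe set read 10.3, 10.5 and 10.6 in the sham mice, 10.4, 10.5 and 10.4 in the MCT mice and 10.4, 9.82 and 10.4 in the MCT + NI mice. The second read 9.23, 9.32 and 9.32, then 9.11, 9.12 and 9.10, then 9.13, 8.75 and 9.19. Mouse 617 was the lowest on both, and the other 8 mice lay between 10.3 and 10.6 and between 9.10 and 9.32. Thra, the thyroid hormone receptor gene that shares these probe sets, may supply any part of this signal.

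Cry1, a repressor whose transcript is known to peak later than those of the Period genes, had a smaller spread and a group pattern of its own. It read 5.88, 5.87 and 5.47 in the sham mice, 5.16, 5.33 and 5.15 in the MCT mice and 5.44, 6.12 and 5.47 in the MCT + NI mice. The 3 MCT mice were the 3 lowest of the 9, whereas sham and MCT + NI mice overlapped. MCT mice averaged 0.53 ± 0.19 (SE, from the fit to all 9 mice) below sham mice, a 1.44-fold lower level, and MCT + NI mice 0.46 ± 0.19 above MCT mice. When 1 mouse was left out, the first difference ran from -0.66 to -0.46 and the second from 0.24, without mouse 617, to 0.58.

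Bhlhe40 (also Dec1 or Stra13), which competes with the activators for E-boxes and also responds to hypoxia and to immune signals, was the gene with the least spread within groups. It read 7.88, 7.93 and 8.14 in the sham mice, 8.29, 8.56 and 8.26 in the MCT mice and 8.00, 8.10 and 7.95 in the MCT + NI mice. Every MCT mouse was above every sham and every MCT + NI mouse, and the last 2 groups overlapped. The difference was 0.39 ± 0.10 (SE) between MCT and sham mice, 1.31-fold, and -0.35 ± 0.10 between MCT + NI and MCT mice, 1.28-fold lower. Between MCT + NI and sham mice it was 0.03 ± 0.10. These differences helped to choose the gene. Of its sum of squares 27.7% lay within the groups, the smallest share of the 8 genes.

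The SD within groups set Bhlhe40 and Cry1 apart from the rest. Arntl had an SD of 1.20, which was 10.7 times the median gene and rank 21 of 18820 genes from the most variable. It was followed by Per2 at 0.84, Npas2 at 0.79, Per3 at 0.76, Per1 at 0.74 and Tef at 0.55, all of them among the 153 most variable genes. Cry1 had an SD of 0.27 and rank 1174, and Bhlhe40 an SD of 0.13, 1.18 times the median, and rank 7326.

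In the order of the group means, sham mice were highest for Per1, Per2, Per3, Cry1 and Tef, MCT + NI mice for Arntl and Npas2, and MCT mice for Bhlhe40. Of the 16 differences between neighbouring means in these orders, 10 did not exceed the larger SD of the 2 groups. The other 6 were sham above MCT for Per1, Per2, Per3 and Tef, MCT + NI above MCT for Cry1, and MCT above MCT + NI for Bhlhe40. MCT + NI and MCT means of Arntl, Npas2, Per1, Per2, Per3 and Tef differed by less than the SD of the MCT + NI mice.

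**Figure D2:**
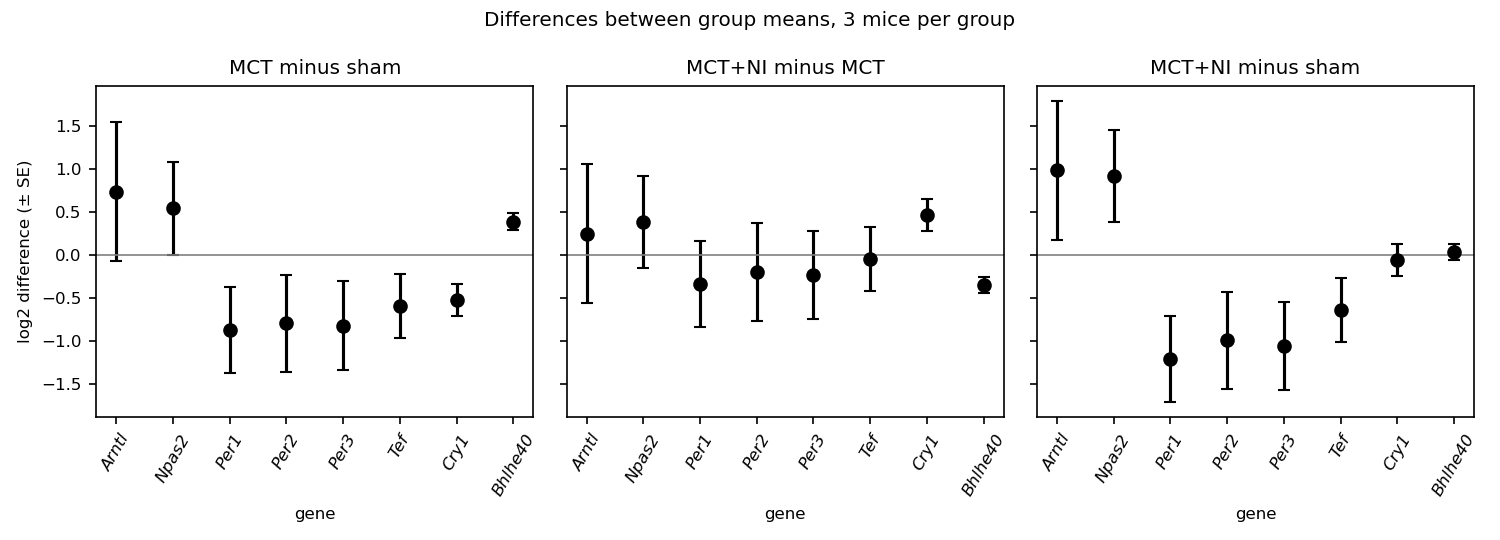
Differences between group means in log2 units (vertical axis) for the 8 measured genes (horizontal axis) in the 3 comparisons, with standard errors from the linear model. In MCT minus sham mice the repressors and Tef lie below 0 and the activators above it with wide errors, and the errors of Bhlhe40, at 0.10, are the narrowest.

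Expressed as differences between means, MCT mice were 0.74 ± 0.81 (SE) above sham mice for Arntl, 0.54 ± 0.54 above for Npas2, and below them by 0.87 ± 0.50 for Per1, 0.80 ± 0.57 for Per2, 0.82 ± 0.51 for Per3 and 0.59 ± 0.37 for Tef. MCT + NI mice, set against the same sham arrays, differed from them by 0.98 ± 0.81, 0.92 ± 0.54, -1.21 ± 0.50, -0.995 ± 0.57, -1.06 ± 0.51 and -0.64 ± 0.37 for these genes in the same order. Between MCT + NI and MCT mice all 6 differences were within 0.38 of 0. The 3 comparisons share arrays with each other, so that their values are not independent.

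At a Benjamini-Hochberg adjusted p under 0.05 in limma, a linear model fitted to all genes, 1 of the 8 genes passed between MCT and sham mice, Bhlhe40, where 6.26% of all genes passed. None passed in MCT + NI against MCT mice, where 0% of all genes did, nor in MCT + NI against sham mice, where 6.26% of all genes did. At an unadjusted p under 0.05 the counts were 2, 2 and 1 of 8 beside 19.7%, 2.9% and 19.5% of all genes. Groups did not overlap for 2 of the 8 genes, Bhlhe40 and Cry1, in MCT against sham mice, beside 21.9% of all genes, for the same 2 in MCT + NI against MCT mice, beside 6.08%, and for 0 in MCT + NI against sham mice, beside 21%. Because the choice of genes used these contrasts, nothing is read from the counts.

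A few mice decided these values. Without mouse 617, whose clock genes ran opposite to those of its group mates, MCT + NI mice differed from sham mice by -1.80 for Per1, -1.70 for Per2, -1.67 for Per3 and -1.11 for Tef, and the count of genes past the adjusted threshold in that comparison went from 0 to 4. This count, like the others, is a description of genes chosen from these values. Bhlhe40 missed the threshold between MCT and sham mice in 12 of 16 alternatives, with a difference of 0.29 to 0.46 when any 1 mouse was left out and of 0.33 with the atrial marker level as a covariate. The difference of Arntl between MCT and sham mice ranged from 0.32 to 1.31 when 1 mouse was left out and was 1.49 with the atrial covariate, and that between MCT + NI and sham mice was 1.80 with it. For Npas2 the same covariate gave 1.13 and 1.56. For Per3, Tef and Cry1 it moved the difference between MCT and sham mice to -1.27, -0.91 and -0.65. With this covariate none of the listed genes passed the adjusted threshold in either comparison with sham mice.

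The opposed movement of the 2 arms was summarised by a clock score, the mean log2 intensity of Arntl and Npas2 minus that of Per1, Per2, Per3 and Tef. Because it subtracts one set of probes from another, only its differences between mice carry meaning. The score was -3.45, -2.58 and -1.37 in sham mice 620, 624 and 625, -0.46, -2.56 and -0.14 in MCT mice 640, 641 and 644, and 0.51, -3.28 and 1.16 in MCT + NI mice 615, 617 and 619. Mice 617 and 641 lay among the sham mice, and the other 4 monocrotaline mice lay above all 3 of them.

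The group means of the score were -2.46 ± 1.05, -1.05 ± 1.31 and -0.54 ± 2.40 (SD, n = 3), and 74.1% of its sum of squares lay within groups. The 3 MCT + NI mice spanned 4.44 log2 units, against 4.61 for all 9 mice together, 2.42 for the MCT and 2.08 for the sham mice. The difference between MCT and sham means was 1.41 and changed to between 0.918 and 2.16 when 1 mouse was left out. Between MCT + NI and MCT means it was 0.52, and it fell below 0 in 3 of the 9 cases, without mouse 641, 615 or 619, within a range of -0.33 to 1.89.

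**Figure D3:**
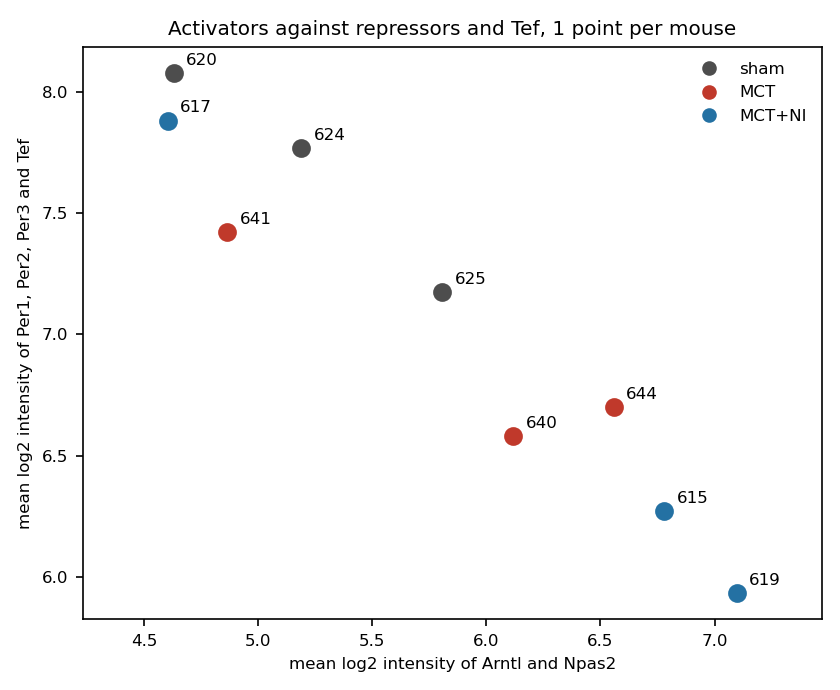
Mean log2 intensity of Per1, Per2, Per3 and Tef (vertical axis) against that of Arntl and Npas2 (horizontal axis), 1 labelled point per mouse, coloured by group. The points fall along a descending line from mice 620 and 617 at the upper left to mouse 619 at the lower right (r = -0.96), and the groups are mixed along it.

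Across the 9 mice the mean of the activators and the mean of Per1, Per2, Per3 and Tef had a Pearson r of -0.96 and a Spearman rho of -0.95. Without mice 617 and 619, the 2 farthest from the median of the activators, r was -0.94. After subtraction of each group's mean it was -0.97 (rho -0.88), so the same opposition was present among mice of one treatment. All 8 pairs of an activator with one of these 4 genes had an r between -0.97 and -0.87, and all 6 pairs among the 4 genes an r between 0.91 and 0.98. Values from 1 array share its RNA and its normalization, and the genes had been chosen for this pattern. The part of the time of day in these values was not tested, since that time is not given for any mouse in the sources used here.

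Cry1 joined the repressors more closely within groups than across them. Its r with Per1, Per2, Per3 and Tef was 0.64 to 0.76 over the 9 values as deposited and 0.90 to 0.96 after group means were subtracted, and with the activators it went from between -0.68 and -0.61 to between -0.91 and -0.90. Bhlhe40 ran with neither arm as deposited, with an r between -0.11 and 0.00 for the 6 genes of the score. After centring its r was -0.44 to -0.41 with the activators and 0.21 to 0.45 with Per1, Per2, Per3 and Tef, weaker than that of Cry1. The r of Bhlhe40 with Cry1 was -0.58 as deposited and 0.12 after centring.

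**Figure D4:**
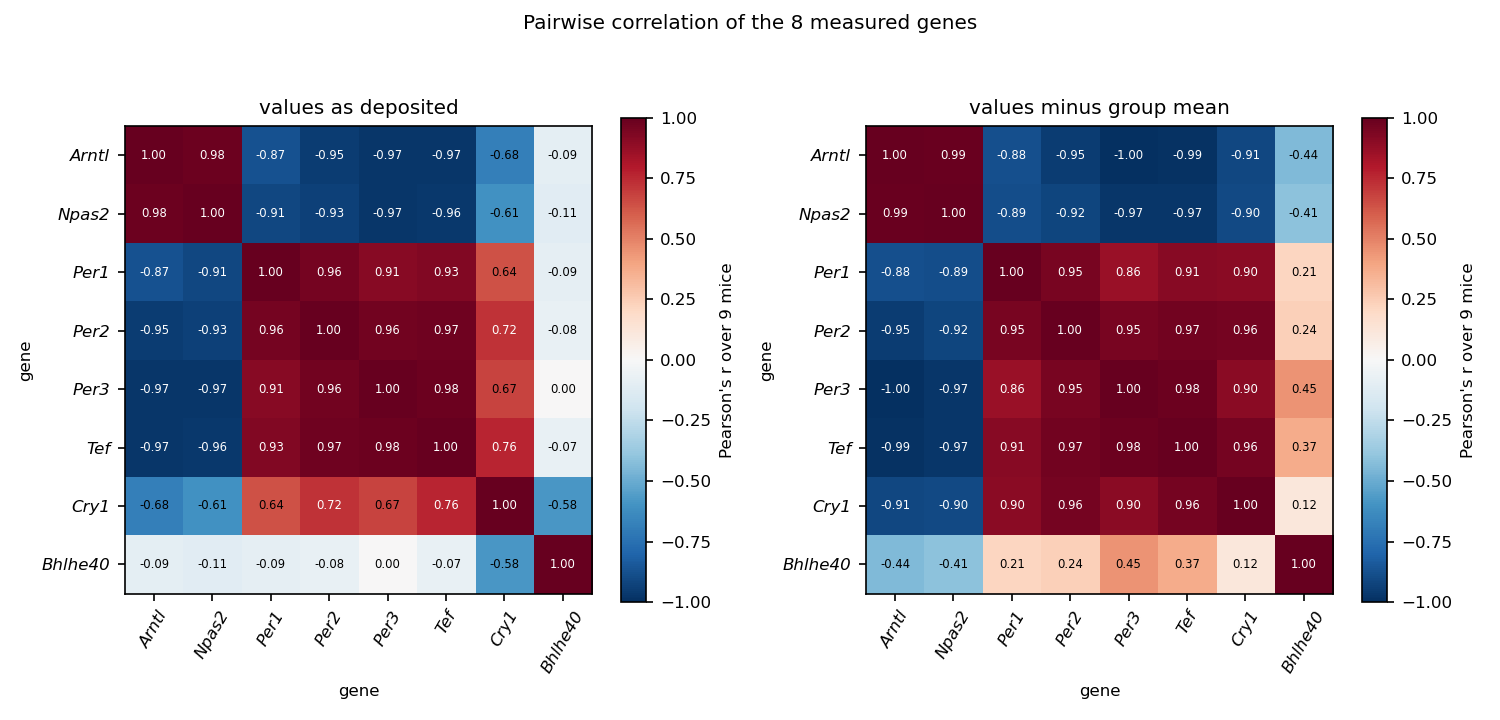
Pearson correlation over the 9 mice for every pair of the 8 measured genes (both axes), from the deposited values on the left and after subtraction of the group mean on the right, with red for positive and blue for negative values. Arntl and Npas2 form a block opposed to Per1, Per2, Per3 and Tef, Cry1 joins the second block on the right, and Bhlhe40 has its strongest values with Cry1 on the left (-0.58) and with Per3 on the right (0.45).

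The other genes of the core clock, which were no part of the list, were tested in the same model. Of 12 such genes 11 were measured, and 0 passed an adjusted p under 0.05 in limma in any of the 3 comparisons. Of all genes 6.26% passed for MCT against sham mice, 0% for MCT + NI against MCT mice and 6.26% for MCT + NI against sham mice. At an unadjusted p under 0.05 in limma the counts were 3 for MCT against sham mice (Cry2, Rora and Hlf), 0 for MCT + NI against MCT mice and 4 for MCT + NI against sham mice (Cry2, Bhlhe41, Hlf and Rora), beside 19.7%, 2.9% and 19.5% of all genes. The median difference of the 11 genes was -0.23, -0.03 and -0.23 in these comparisons, beside -0.02, 0.00 and -0.02 for all genes.

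Ciart, which encodes the repressor CHRONO, had the spread of the listed genes. It read 7.88, 7.38 and 6.51 in the sham mice, 5.85, 7.47 and 5.82 in the MCT mice and 5.41, 7.58 and 4.91 in the MCT + NI mice, and its 3 E-boxes began 116, 58 and 44 bases before the start. Mice 620, 617 and 641 had the 3 highest values, and the groups overlapped. Its r with the clock score was -0.995 both as deposited and after centring. The difference between MCT and sham mice was -0.88 ± 0.72 (SE), with an adjusted p of 0.557 in limma.

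Hlf, a further PAR bZIP factor, read 7.86, 7.86 and 7.29 in the sham mice, 6.48, 7.30 and 6.59 in the MCT mice and 6.42, 7.53 and 6.10 in the MCT + NI mice. Cry2, the second Cryptochrome, read 7.65, 7.71 and 7.36, then 6.91, 7.31 and 6.75, then 6.69, 7.47 and 6.72. For Cry2 all MCT mice were below all sham mice, by 0.58 ± 0.22 (SE) on average with an adjusted p of 0.188 in limma, whereas mouse 617 lay within the sham range. Hlf differed between MCT and sham mice by -0.88 ± 0.36 (adjusted p = 0.224, limma), with mouse 641 just above sham mouse 625.

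Nr1d2, which encodes REV-ERBβ, is the paralog of Nr1d1 and had a probe set of its own. It read 8.73, 8.61 and 8.45 in the sham mice, 8.07, 8.38 and 7.97 in the MCT mice and 8.00, 8.65 and 7.60 in the MCT + NI mice. Its 3 MCT values were all below the sham values, by 0.45 ± 0.23 (SE) on average with an adjusted p of 0.328 in limma. Bhlhe41 (Dec2), the paralog of Bhlhe40, read 8.08, 8.04 and 7.77, then 7.45, 7.81 and 7.17, then 7.01, 7.89 and 6.63, and so followed the order of the Period genes and not that of Bhlhe40. Its difference between MCT and sham mice was -0.48 ± 0.29 (adjusted p = 0.411, limma), where that of Bhlhe40 was positive.

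Clock, the partner of Arntl whose transcript is known to cycle little, read 8.00, 8.44 and 8.56 in the sham mice, 8.60, 8.44 and 8.84 in the MCT mice and 8.87, 7.94 and 8.82 in the MCT + NI mice. It moved with the activators (r = 0.92 with the score) over a narrower range. Nfil3 (E4BP4), a repressor at D-boxes, read 4.66, 5.21 and 5.33, then 5.65, 4.46 and 5.43, then 5.91, 5.41 and 5.83, with mouse 641 lowest. All 3 MCT + NI mice were above all sham mice for Nfil3, by 0.65 ± 0.31 (SE; adjusted p = 0.291, limma).

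**Figure D5:**
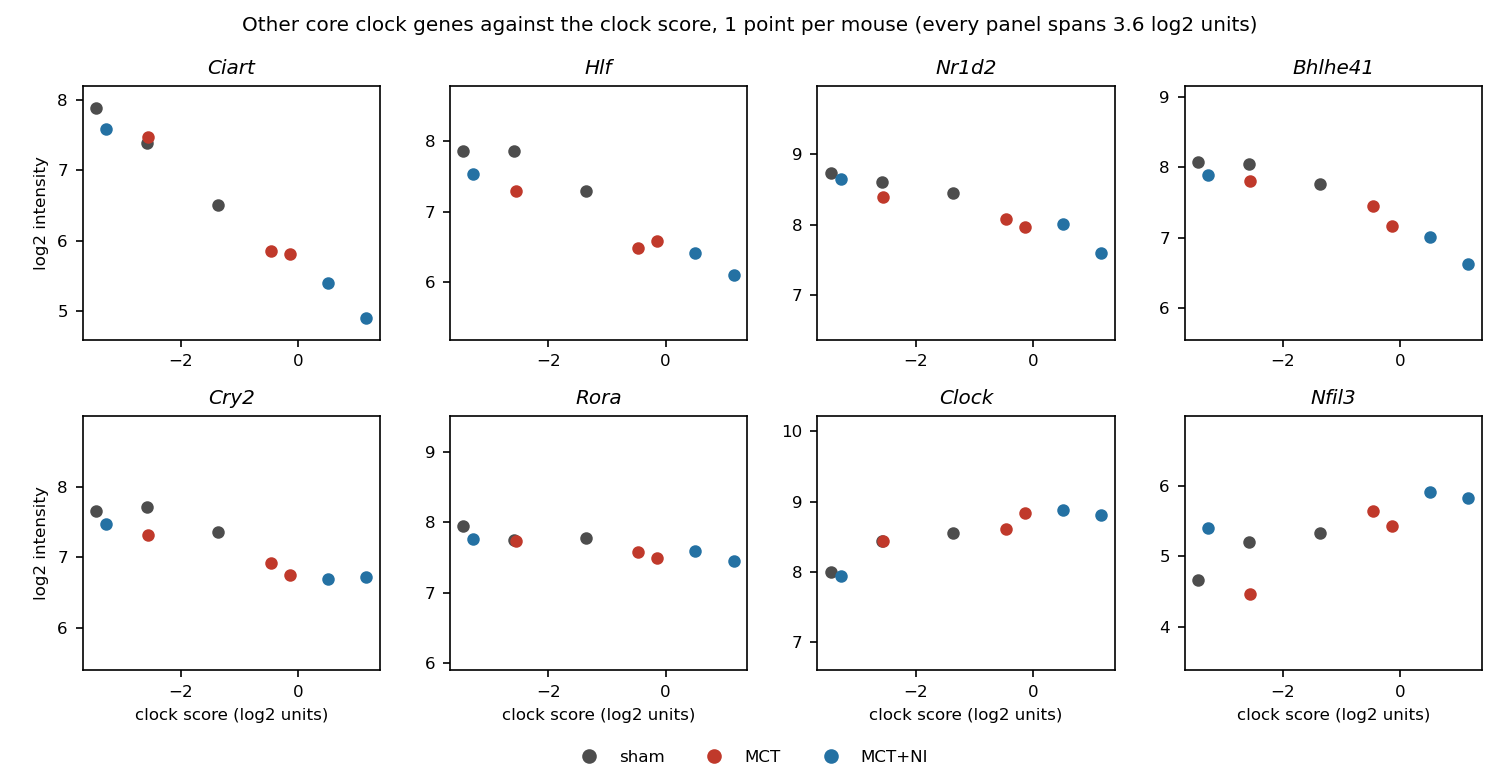
Log2 intensity (vertical axis) of 8 other core clock genes against the clock score (horizontal axis, log2 units), 1 point per mouse, coloured by group, with the same vertical span in every panel. Ciart, Hlf, Nr1d2, Bhlhe41, Cry2 and Rora descend and Clock and Nfil3 ascend with the score, with the least scatter for Ciart and more for Nfil3, for which mice 641 and 624, of nearly equal score, read 4.46 and 5.21.

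Over the 9 mice the r with the clock score was -0.96 for Nr1d2, -0.95 for Bhlhe41, -0.95 for Hlf, -0.93 for Cry2, -0.89 for Rora, 0.78 for Nfil3 and 0.72 for Timeless. Rorb at -0.46 and Arntl2 at 0.11, the latter a paralog of Arntl, were farthest from either end. In all, 6 of the 11 genes had an absolute r of 0.9 or more, beside 0.361% of all genes measured. After centring on group means these were again 6 of 11, beside 1.54%.

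Of 16 measured enzymes and cofactors that modify clock proteins, 2 were lower in MCT than in sham mice past the adjusted threshold in limma, as were 1.61% of all genes, and none was higher. Prkaa2, a catalytic subunit of the kinase AMPK, which marks CRY proteins for degradation, fell by 0.30 ± 0.05 (SE; adjusted p = 0.0109, limma). Hdac3, the deacetylase that acts with REV-ERBα, fell by 0.17 ± 0.04 (adjusted p = 0.0446). Prkaa2 also fell between MCT + NI and sham mice, by 0.23 ± 0.05 (adjusted p = 0.0347, limma), where 1.75% of all genes fell. Between MCT + NI and MCT mice 0 genes of this list passed, at an unadjusted p under 0.05 as well, beside 0% and 2.9% of all genes. Usp2, a deubiquitinase that is itself clock-controlled and was picked out after its values were seen, had an r of -0.99 with the score.

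Among 14 output genes known to cycle in the heart or other tissues, 1 rose between MCT and sham mice and 0 fell, where 4.65% of all genes rose and 1.61% fell. The gene that rose was Cdkn1a, which encodes the cell cycle inhibitor p21 and also responds to DNA damage. It read 5.96, 5.71 and 6.33 in the sham mice, 9.53, 9.45 and 9.39 in the MCT mice and 9.40, 9.51 and 9.66 in the MCT + NI mice. All 6 monocrotaline mice lay far above the sham mice, by 3.45 ± 0.14 (SE; adjusted p = 7.08e-06, limma) without and 3.53 ± 0.14 (adjusted p = 6.52e-06) with the intervention. Its r with the clock score was 0.51, and mice 617 and 641, with sham-like scores, had Cdkn1a levels like those of their groups.

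Klf15, a cardiac factor that links the clock to lipid and amino acid use, read 7.66, 7.48 and 7.29 in the sham mice, 6.94, 7.02 and 7.001 in the MCT mice and 6.86, 7.33 and 6.80 in the MCT + NI mice. All MCT mice were below all sham mice, by 0.49 ± 0.14 (SE; adjusted p = 0.082, limma). Kcnip2, which encodes a subunit of the transient outward potassium channel and is a target of Klf15, differed by -0.37 ± 0.11 (adjusted p = 0.092, limma), and Klf9 by -0.44 ± 0.15 (adjusted p = 0.129). Of the 14 output genes, 4 had an r of -0.9 or below with the score, where 0.218% of all genes did. They were Wee1 at -0.96, Tspan4 at -0.94, Coq10b at -0.93 and Dgat2 at -0.90, picked out after their values were seen. An r of 0.9 or above was reached by 0 of the 14 and by 0.143% of all genes. After centring the counts were 6 and 0, beside 0.691% and 0.845% of all genes.

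Of the 11 genes that respond to glucocorticoids, hormones with a daily rhythm of their own that can set the clock of the heart, Sgk1 and Lcn2 rose between MCT and sham mice and 0 fell, where 4.65% of all genes rose and 1.61% fell. Sgk1 rose by 0.56 ± 0.10 (SE; adjusted p = 0.0142, limma) and Lcn2 by 0.84 ± 0.14 (adjusted p = 0.00778). Against the same sham arrays, MCT + NI mice were higher by 0.71 ± 0.10 for Sgk1 (adjusted p = 0.00466, limma) and by 0.96 ± 0.14 for Lcn2 (adjusted p = 0.00442), where 4.52% of all genes rose. Their r with the score was 0.33 and 0.42 as deposited and -0.46 and -0.17 after centring. The mean of the list had an r of -0.42 as deposited and -0.81 after centring. As deposited, the r of its genes ran from -0.87 for Klf9 to 0.64 for Errfi1. The lists share genes: Klf9 and Tsc22d3 were also counted among the output genes, and Dusp1 among the immediate early genes. In MCT + NI against MCT mice 0 of the 11 genes, and 0 of the 14 output genes, passed in limma, at an unadjusted p under 0.05 as well. Of all genes 0% and 2.9% did. The mean of the list was highest in mouse 617, at 8.21, and lowest in sham mouse 624, at 7.53.

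Targets of hypoxia-inducible factors were counted because Bhlhe40 is one of them. Of 13 measured, 3 rose between MCT and sham mice and 0 fell. The genes that rose were Egln3 by 0.49 ± 0.12 (SE; adjusted p = 0.0477, limma), Ankrd37 by 0.65 ± 0.12 (adjusted p = 0.0149) and Ldha by 0.18 ± 0.03 (adjusted p = 0.00918), and 4.65% of all genes rose. All 3 also rose between MCT + NI and sham mice, by 0.72, 0.51 and 0.17 beside 4.52% of all genes. The rest of the 13 did not pass the adjusted threshold in limma there. Bhlhe40 itself had a difference of 0.03. Whether hypoxia had a part in the level of Bhlhe40 was not tested. None of the 13 passed between MCT + NI and MCT mice, at an unadjusted p under 0.05 as well, beside 0% and 2.9% of all genes. Of the 14 immediate early genes 0 passed in any comparison at an adjusted p under 0.05 in limma, beside 6.26%, 0% and 6.26% of all genes. At an unadjusted p under 0.05 the counts were 2, 0 and 1, beside 19.7%, 2.9% and 19.5% of all genes.

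Levels of other cell types moved with the clock score in part. Over the 9 mice the mean of 4 macrophage markers had an r of 0.79 with it, that of 4 endothelial markers 0.75, that of 3 lymphocyte markers 0.76 and that of 6 atrial markers -0.15. After centring on group means these were 0.85, 0.72, 0.67 and 0.33. The means of fibroblast, smooth muscle, ventricular cardiomyocyte and adipocyte markers had an r of 0.62, 0.55, 0.28 and -0.04 as deposited. After centring these were 0.56, 0.41, 0.07 and 0.09. The macrophage mean was 7.20 to 7.55 in the sham mice, 7.60 to 7.99 in the MCT mice and 7.44 to 7.83 in the MCT + NI mice, and mouse 617 had the lowest value of its group, as did mouse 641 of its own. Between groups the macrophage markers did not all move together. Cd68 and Lyz2 rose between MCT and sham mice, by 0.71 and 0.70 (adjusted p = 0.0256 and 0.0184, limma). Csf1r differed by -0.28 there (adjusted p = 0.156, limma) and fell between MCT + NI and sham mice, by 0.42 (adjusted p = 0.0403). The r of Csf1r with the score was -0.01 as deposited and 0.90 after centring, where Adgre1, Lyz2 and Cd68 had 0.90, 0.78 and 0.55. The endothelial mean was 9.01 to 9.23, 9.36 to 9.49 and 9.26 to 9.57 in the 3 groups, although 1 of its markers, Tek, fell between MCT + NI and sham mice, by 0.62 (adjusted p = 0.0348, limma). The r of Tek with the score was -0.02 as deposited and 0.88 after centring. Cdh5 had 0.47 and -0.01, Pecam1 0.62 and 0.54, and Kdr 0.73 and 0.69. Among the lymphocyte markers Cd3e had 0.80 and 0.76 and Cd3g 0.70 and 0.62, whereas Cd79a had 0.22 and -0.12. Cd79a read 3.18 to 3.95 over the 9 mice, below the array medians. The part of these cells in the clock gene levels was not tested.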

How the data were processed

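RNA of the right ventricle of 9 mice was hybridised to Affymetrix Mouse Gene 1.1 ST arrays, 1 array per mouse. The authors processed the array intensities by robust multi-array averaging and deposited log2 values. Probe sets were remapped to genes according to the methods, whereas the rows of the deposited table are 35556 probe sets numbered by the manufacturer, and these were used. Of these, 12457 had no gene in the platform annotation, 1881 had several and 21218 had 1, and symbols were updated through Entrez numbers for 21185. Where several probe sets remained for a gene, the brightest was kept, which gave 18820 genes. Groups were taken from the labels of the samples. A linear model with a mean for each group was fitted to all 9 mice in limma 3.58.1 (R 4.3.3) with an intensity trend, and p-values are two-sided with Benjamini-Hochberg adjustment over all genes. The code was tested on simulated data. The number of arrays limits the precision, and raw scans were not used here.

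The genes and lists were chosen with earlier results of these data known. All listed clock genes and other core clock genes are named, and of each other list up to 4 genes with the smallest p between MCT and sham mice. A few further genes were named after their values were seen, as stated beside them. Correlations carry no p because the genes were chosen for them. The alternatives were no intensity trend, the mean of all probe sets of a gene, only genes at or above the median level, a further quantile normalization, only the 2 groups compared, the atrial marker mean as a covariate, Cry1 and Bhlhe40 added to the score, and leaving out each mouse in turn. After the data were seen, the shared probe sets of Dbp and Nr1d1 in the score and the score as a covariate were added. Promoter windows came from the RefSeq tables for GRCm38.p6.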

Additional observations from a re-analysis of the deposited data

How the results depend on the processing

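Of 366 member differences recomputed under the alternatives, 329 kept their direction and their side of the adjusted threshold and 20 had the opposite sign, none of which passed it. These 20 were 12 differences between MCT + NI and MCT mice, in Arntl, Npas2, Per2, Per3 and Tef without mouse 641, 615 or 619, and 8 between MCT + NI and sham mice, in Cry1 and Bhlhe40. Of the rest, 12 no longer passed, and 5 passed newly. The 12 that no longer passed were all Bhlhe40 between MCT and sham mice. The count of listed genes passing between MCT and sham mice, 1 as reported, was 0 without the intensity trend, after a further quantile normalization, with only the 2 groups compared and with the atrial marker level as a covariate, and 0 to 1 when a mouse was left out (1 only without mouse 617, through Cry1, or mouse 625, through Bhlhe40). Between MCT + NI and sham mice the count was 0 to 4 for the listed genes and 0 to 4 for the other core clock genes when a mouse was left out, the 4 each time without mouse 617, for the latter Hlf, Nr1d2, Cry2 and Bhlhe41. With the clock score as a covariate, 1 other core clock gene, Hlf, passed between MCT and sham mice. The r between activators and repressors ranged from -0.977 to -0.947 without 1 mouse, and from -0.997 to -0.930 on centred values. With the shared probe sets of Dbp and Nr1d1 counted among the repressors it was -0.96, and the score differed between MCT and sham mice by 1.29. No paired analysis was possible because the groups share no mouse numbers. With 3 mice per group, the SE of a difference was 0.81 for Arntl, 0.50 to 0.57 for the Period genes and 0.10 for Bhlhe40.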

Other observations

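Genes whose pattern was most like that of Arntl were sought among 3264 genes at or above the median level and the median SD within groups, by Pearson r over the 9 mice after group means were subtracted. The 5 highest were Npas2 (0.99), Tgfb1 (0.99), Fstl4 (0.98), Gata4 (0.97) and Ms4a6d (0.97). As deposited, without centring, Fstl4 remained at 0.98, while Tgfb1 was at 0.73 and Gata4, a cardiac transcription factor, at 0.80. The 5 lowest were Per3 (-0.997), Ciart (-0.99), Tef (-0.99), Cpeb1 (-0.98) and Abca6 (-0.98). Npas2, Per3 and Tef had been listed with these values known, so their place here restates that choice. For Bhlhe40 the 5 highest were Clec14a (0.97), Tpmt (0.95), Ier5l (0.94), Tmem117 (0.93) and Zfp641 (0.92). The 5 lowest were Grb2 (-0.94), Snrpd1 (-0.94), Pnp (-0.90), Eepd1 (-0.88) and Asns (-0.88). As deposited, the 5 highest were at 0.55, 0.71, 0.77, 0.31 and 0.34 in this order. The 5 lowest were then at -0.67, -0.05, -0.30, -0.84 and 0.31, so that Asns had the opposite sign. With 9 mice and 3264 genes, a high r arises for many genes. After centring, 1.40% of all genes reached an absolute r of 0.9 with Arntl and 0.372% with Bhlhe40. These shares are of all genes measured, not of the 3264. Their cut of 0.9 lies below the size of every centred r named for Arntl.

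Usp2 read 9.64, 9.34 and 9.15 in the sham mice, 8.74, 9.28 and 8.76 in the MCT mice and 8.39, 9.51 and 8.18 in the MCT + NI mice, in the order of mice used above. Wee1, a kinase that restrains entry into mitosis and a known target of the clock, read 7.57, 7.20 and 6.72, then 6.73, 7.07 and 6.55, then 6.65, 7.52 and 6.17. Mice 641 and 617 were the highest of their groups for both genes. The mean of 13 targets of hypoxia-inducible factors had an r of 0.87 with the clock score as deposited and 0.83 after centring. As deposited, the r of the single targets ran from -0.38 to 0.91. Vegfa, the endothelial growth factor, was the only one of the 13 with an absolute r of 0.9 or more (0.91), beside 0.361% of all genes. It read 9.58, 9.78 and 9.77, then 10.0, 9.65 and 9.78, then 10.1, 9.53 and 10.1. Usp2, Wee1 and Vegfa were picked out after their values were seen.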
